A study of Drosophila melanogaster with 9 samples.

Results

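The 45 genes described here, of 15228 genes counted in stage 16 *Drosophila melanogaster* embryos, belong to families of digestive enzymes of the midgut. They were chosen by name, as every gene whose symbol begins with Jon and a number, joins a Greek letter to Try, begins with Mal-A or Mal-B, or is Lys with a single further letter, together with *Amy-p*, *Amy-d* and *mag*. Of these, 44 matched as spelled, and *mag*, which the table writes in lower case, was included as the lipase gene. The set holds 16 Jonah proteases, 9 trypsins, 10 alpha-glucosidases, 2 amylases, 7 lysozymes and 1 lipase. Membership was decided by name alone, but the set was chosen with earlier results of these data known.

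Enterocytes of the fly midgut secrete enzymes of these families into the gut lumen, though not every member need be such an enzyme, and *LysC* is annotated as a pseudogene. Jonah proteins and trypsins are serine proteases that cut dietary protein, the trypsins after basic residues and the Jonah proteins as relatives of chymotrypsin. Amylases cut starch, and alpha-glucosidases, or maltases, split the resulting maltose into glucose. Lysozymes cleave bacterial cell walls, and the lipase Magro, the product of *mag*, acts on dietary fat and sterol esters. The embryo lives on yolk and feeds only after hatching.

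RNA-seq of polyadenylated RNA was performed on whole embryos of 3 genotypes, with 3 samples per genotype and 200 embryos of stage 16 pooled in each sample. Control embryos are labelled WT and have titles beginning with w, *pri* embryos carry the allele *pri S18.1*, and *ken* embryos carry the allele *ken1* over the deficiency *Df(2R)BSC660*, a deletion that also covers neighbours of *ken*. Mutants were picked by hand with the help of a GFP-marked balancer chromosome. The authors call the samples of a genotype independent, and p-values here measure the spread between these samples. The samples held 21048610 to 28859395 counts. *ken* ranged from 6432 to 7431 normalized counts in control samples and from 1184 to 1338 in *ken* samples, and *pri* itself was not analysed here. Levels are the authors' normalized counts, which are read counts divided by a size factor of the sample. Genotypes were compared with edgeR's quasi-likelihood test over all 15228 genes, and a gene is said to rise or fall where the adjusted p (Benjamini-Hochberg) was under 0.05.

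Samples of a genotype stood far apart in these genes, and *pri* sample 1 stood apart most. The 45 genes together took 598, 372 and 559 CPM (counts per 1000000 counts of a sample) in control samples 1, 2 and 3, 1386, 310 and 375 across *pri* samples, and 720.5, 315 and 523 across *ken* samples. Sample 1 held the highest sum and sample 2 the lowest sum in each genotype, and the range of the *pri* samples enclosed all control and *ken* samples. In a pool of whole embryos, fewer cells of a type and less RNA per cell cannot be told apart. Of the 45 genes, 43 were higher in *pri* sample 1 than the mean of the other *pri* samples, by a median of 2.35 on the log2 scale over the 45, and 32 by more than 1. Of all 15228 genes, 1610 exceeded 1 in the same difference, and the median was 0. Between the highest and the lowest sample of a genotype, the median log2 range of the 45 genes was 1.38 in control, 2.81 in *pri* and 1.30 in *ken* embryos, against 0.307, 0.405 and 0.429 over all genes. A mean of at least 50 normalized counts over the 9 samples was reached by 31 of the 45, and 8 of these did so only with *pri* sample 1.

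The same sample numbers were high and low in all genotypes. Sample 1 was the highest control sample for 71.1% of the 45 genes, the highest *pri* sample for 95.6% and the highest *ken* sample for 77.8%, where a tied sample is not counted as highest. Sample 2 was the lowest for 31, 31 and 36 of them, with *Jon66Cii*, tied at 0 in *pri* samples 2 and 3, counted for *pri* sample 2. Among all 15228 genes, with ties treated in the same way as for the highest sample above, sample 1 was highest in 31.4% of genes in control, 39.8% in *pri* and 37.4% in *ken* embryos. Across the 45 genes, the difference of *pri* sample 1 from the other *pri* samples had a Pearson correlation of 0.65 with that of *ken* sample 1 and of −0.65 with that of control sample 2. These are descriptions over genes, several of them of low level or in shared clusters, and genes are not independent replicates. *pri* sample 1 was the highest of all 9 samples for 30 of the 45 genes, *ken* sample 1 for 5, and control samples 1 and 3 for 4 each. Fold changes in *pri* embryos are therefore given with and without *pri* sample 1.

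**Figure D1:**
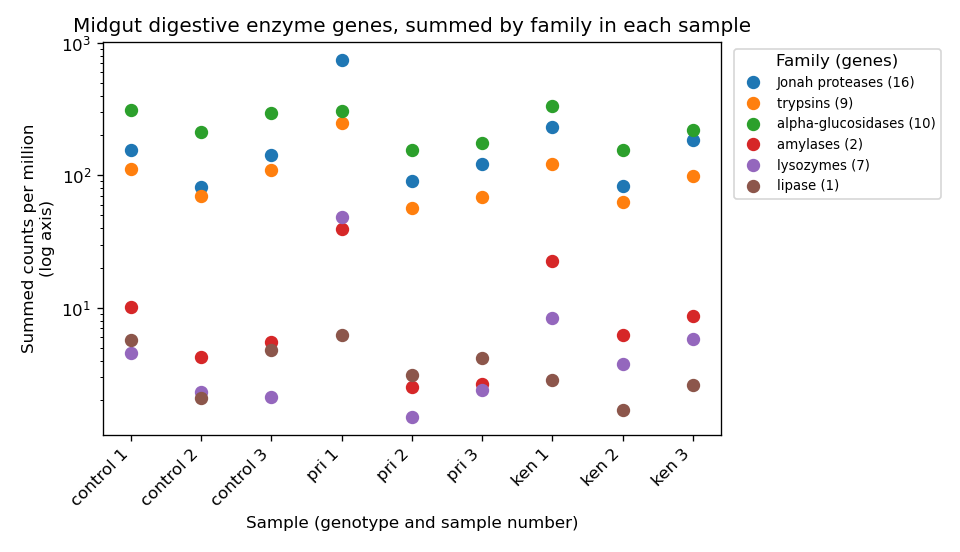
Summed CPM (log axis) of each enzyme family in each of the 9 samples, with 1 point per family and sample. Sample 1 is the highest of its genotype for most families, and the Jonah proteases reach 739 CPM in *pri* sample 1 against 81.6 to 232 in the control and *ken* samples.

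The Jonah proteases took 155, 81.6 and 143 CPM across control samples, 739, 90.2 and 121 across *pri* samples, and 232, 83.6 and 186 across *ken* samples. They made up 53.3% of the summed normalized counts of the enzyme genes in *pri* sample 1 and between 21.9% and 35.5% in every other sample. All 16 were higher in *pri* sample 1 than in the mean of the other *pri* samples, with a median difference of 4.45 on the log2 scale, and 9 of them by more than 4. In *ken* sample 1 the median difference was 1.21, and none exceeded 4. The 16 genes lie on 2L, 2R, 3L and 3R of the dm6 genome, mostly in small clusters.

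*Jon25Biii*, *Jon25Bii* and *Jon25Bi* lie within 5.20 kb on 2L, from 4949941 to 4955144. *Jon25Biii* was the Jonah gene with the highest control level for its length, at 1176 normalized counts per kb of exon. It stood at 1415, 519.6 and 983 across control, 3178, 213 and 379.7 across *pri* and 1744, 462 and 1121 across *ken* samples (normalized counts here and in all values by sample below). *Jon25Bii* stood at 212, 10.8 and 93.5 across control, 1466, 7.42 and 11.5 across *pri* and 295, 56.9 and 109 across *ken* samples. *Jon25Bi* stood at 127, 22.5 and 105 across control, 1991, 9.54 and 29.3 across *pri* and 371, 56.9 and 267 across *ken* samples. In each of them *pri* sample 1 exceeded every other sample and *pri* sample 2 was below every control sample. *pri* sample 3 was also below control in *Jon25Biii* and exceeded control sample 2 in the other genes. *Jon25Bi* and *Jon25Bii* are close relatives, and how the counting treated reads that fit both is not given in the sources used here.

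*Jon65Aiii* and *Jon65Aiv* belong to the cluster of 4 genes on 3L from 6039155 to 6054443. *Jon65Aiii* stood at 837, 950.2 and 1065 across control, 2839, 1312 and 1628 across *pri* and 1052, 813 and 1457 across *ken* samples. All 3 *pri* samples were above all control samples, with no overlap. The log2 fold change was 1.02 (standard error, SE, 0.29, adjusted p = 0.0705 from edgeR) and 0.63 without *pri* sample 1 (adjusted p = 0.137). It passed with DESeq2 (adjusted p = 0.00668), with a block for the sample number (0.97, adjusted p = 0.0362 from edgeR) and without *pri* sample 2 (1.23, adjusted p = 0.0404). The sample numbers of *pri* and control were not taken as pairs, so the block is an alternative only in this comparison. *Jon65Aiv* stood at 753, 370.4 and 906 across control, 2675, 483 and 670.5 across *pri* and 843, 349.6 and 963 across *ken* samples. Here the *pri* samples 2 and 3 lay within the range of the control samples. The other genes of this cluster, *Jon65Ai* and *Jon65Aii*, had means under 50 and ranged from 1.06 to 103 and from 0 to 6.88 normalized counts.

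A further 5 Jonah genes lie at 99C and 99F on 3R. *Jon99Ci*, *Jon99Cii* and *Jon99Ciii* lie within 3.97 kb from 29922216 to 29926189, and *Jon99Fi* and *Jon99Fii* within 2.88 kb from 30487016 to 30489895. *Jon99Cii* stood at 18.3, 1.80 and 13.7 across control, 1424, 1.06 and 3.14 across *pri* and 117, 35.8 and 38.5 across *ken* samples. *Jon99Ciii* stood at 58.5, 10.8 and 29.7 across control, 1068, 0 and 5.23 across *pri* and 123, 28.4 and 51.3 across *ken* samples. *Jon99Ci* stood at 76.8, 17.1 and 71.9 across control, 194, 11.7 and 13.6 across *pri* and 68.3, 17.9 and 50.4 across *ken* samples. *pri* sample 1 exceeded the mean of the other *pri* samples by 8.93, 8.74 and 3.84 on the log2 scale in *Jon99Cii*, *Jon99Ciii* and *Jon99Ci*. The *ken* samples of *Jon99Cii* were all above the control samples, and those of *Jon99Ci* and *Jon99Ciii* overlapped with the control samples of these genes.

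*Jon99Fi* stood at 54.1, 4.49 and 39.9 across control, 698, 7.42 and 3.14 across *pri* and 427, 66.3 and 136 across *ken* samples. *Jon99Fii* stood at 141, 16.2 and 78.7 across control, 1739.9, 11.7 and 4.18 across *pri* and 77.3, 20.004 and 28.6 across *ken* samples. The genes are neighbours transcribed away from each other. All *ken* samples of *Jon99Fi* exceeded all control samples (log2 fold change 2.68, SE 1.62, adjusted p = 0.455 from edgeR), whereas those of *Jon99Fii* overlapped with them at −0.89 (SE 1.68, adjusted p = 0.847). Neither passed the test, and the difference between the genes was not tested.

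*Jon44E*, on 2R from 8691448 to 8692844 and overlapped on the opposite strand by *CG8586*, stood at 56.8, 27.9 and 39.9 across control, 557, 38.2 and 63.8 across *pri* and 358, 101 and 201 across *ken* samples. Every *ken* sample was above every control sample, and of the *pri* samples 1 and 3 were. The log2 fold change of *ken* against control was 2.40 (SE 0.94, adjusted p = 0.216 from edgeR), and it passed the test without *pri* sample 1 in the shared fit (2.40, adjusted p = 0.0161) and with a block for the sample number (2.32, adjusted p = 0.0264).

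*Jon74E* was the Jonah gene that fell in *pri* embryos. It is a gene of low level on 3L from 17548077 to 17549127, with 13.97, 5.39 and 11.4 across control, 1.15, 1.06 and 0 across *pri* and 6.58, 7.37 and 7.90 across *ken* samples. The *pri* samples hold 2 counts in all against 32 in control and 23 in *ken* samples. As a ratio of CPM this is 0.0723 of control (95% exact interval 0.00840 to 0.283, for counting error only) and 0.101 of *ken* (0.0116 to 0.409). The groups did not overlap. The fitted log2 fold change, which depends on the prior count, was −3.61 against control (adjusted p = 0.0121 from edgeR) and −3.12 against *ken* (adjusted p = 0.0254), and −3.999 and −3.51 without *pri* sample 1 (adjusted p = 0.0271 and 0.0483). The call against control held under each alternative that kept the gene, and the call against *ken* was lost without *pri* sample 2 or 3 or any *ken* sample, at 0.075 at most. *pri* sample 1 exceeded the mean of the other *pri* samples by 0.58 on the log2 scale, the smallest difference of the 16. *Jon66Ci* and *Jon66Cii*, also of low level, were at 92.8 and 17.2 in *pri* sample 1 and at no more than 6.99 in any other sample.

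The 9 trypsin genes lie in one cluster of 20.7 kb on 2R, from 11336840 to 11357537. They took 112, 70.0 and 109 CPM across control samples, 247, 57.0 and 68.1 across *pri* samples, and 122, 63.5 and 99.1 across *ken* samples. In *alphaTry*, *betaTry*, *epsilonTry* and *thetaTry*, *pri* sample 1 exceeded the mean of the other *pri* samples by more than 4 on the log2 scale, and in *lambdaTry*, *kappaTry*, *etaTry*, *zetaTry* and *iotaTry* by less.

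*lambdaTry* stood at 592, 609 and 637 across control, 802, 660.2 and 611 across *pri* and 774, 668 and 826 across *ken* samples. Among the proteases with a mean of at least 50 it had the narrowest range in each genotype, and its *ken* samples were all above its control samples at a log2 fold change of 0.30 (SE 0.12, adjusted p = 0.242 from edgeR). It begins 376 bases after the end of *sha*, a gene for trichome formation, which stood at 1498, 2096 and 1535 in control and at 386, 322 and 452 in *pri* samples. *sha* fell in *pri* embryos (log2 fold change −2.15, adjusted p = 0.00132 from edgeR), while *lambdaTry* was at 0.17 (adjusted p = 0.455). When *pri* sample 1 was left out, *sha* was at −2.14 (adjusted p = 0.00375 from edgeR) and *lambdaTry* at 0.051 (adjusted p = 0.831).

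*kappaTry* stood at 513, 409.9 and 614 across control, 468, 256 and 374 across *pri* and 420.5, 251 and 369 across *ken* samples. *etaTry* stood at 257, 217 and 297 across control, 272, 117 and 166 across *pri* and 165, 87.4 and 178 across *ken* samples. All *ken* samples of *etaTry* were below all control samples, and for *kappaTry* only *ken* sample 1 exceeded a control sample. The log2 fold changes of *ken* against control were −0.84 for *etaTry* (adjusted p = 0.233 from edgeR) and −0.56 for *kappaTry* (adjusted p = 0.304), and both passed only with a block for the sample number, at adjusted p = 0.0332 and 0.0281. In *pri* against control *kappaTry* was at −0.48 (adjusted p = 0.314 from edgeR), and it passed only with the block (adjusted p = 0.0394), where the sample numbers were not taken as pairs. *zetaTry* stood at 733, 356 and 775 across control, 1043, 202 and 317 across *pri* and 809.7, 305 and 568 across *ken* samples. *iotaTry* stood at 91.7, 57.5 and 90.1 across control, 108, 38.2 and 57.5 across *pri* and 60.1, 43.2 and 56.3 across *ken* samples. In *zetaTry*, *iotaTry* and *thetaTry* the *pri* samples 2 and 3 were at or under the lowest control value, and *pri* sample 1 was the highest of the 9 samples.

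*alphaTry* stood at 446, 21.6 and 148 across control, 2143, 36.03 and 46.02 across *pri* and 445, 115 and 277 across *ken* samples. *thetaTry* stood at 74.2, 8.99 and 50.2 across control, 138, 4.24 and 4.18 across *pri* and 39.5, 15.8 and 40.5 across *ken* samples. Control samples of *alphaTry* themselves ranged over 20.7-fold, the widest among genes with no control sample at 0. *betaTry* stood at 7.86, 3.60 and 5.70 across control, 606, 12.7 and 8.37 across *pri* and 118, 41.1 and 26.7 across *ken* samples. It was higher than in control in all samples of both mutants, by 5.15 on the log2 scale for *pri* (SE 1.62, adjusted p = 0.0948 from edgeR) and 3.41 for *ken* embryos (SE 1.59, adjusted p = 0.311). Without *pri* sample 1 these were 0.86 (adjusted p = 0.572) and 3.41 (adjusted p = 0.0125). With a block for the sample number, *betaTry* passed in *pri* embryos (adjusted p = 0.0412 from edgeR), though the sample numbers of *pri* and control were not taken as pairs.

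*epsilonTry* stood at 10.5, 2.70 and 10.3 across control, 444, 1.06 and 0 across *pri* and 75.7, 13.7 and 38.5 across *ken* samples. It was at 444 in *pri* sample 1 and held 1 count in the other *pri* samples together, against 144 counts in the *ken* samples and 24 in control. Without *pri* sample 1, its CPM were 0.0120 of the *ken* level (95% exact interval 0.000301 to 0.0678, for counting error only) and 0.0714 of the control level (0.00174 to 0.438).

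**Figure D2:**
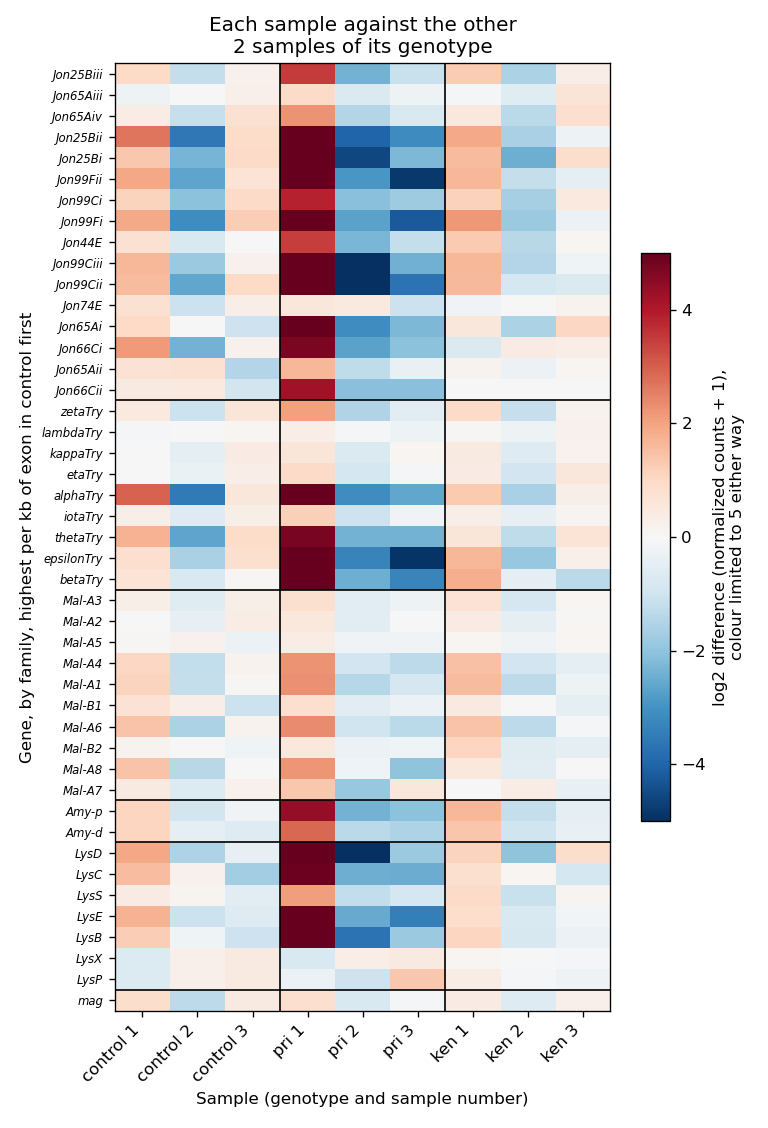
Difference of each sample from the mean of the other samples of its genotype, on a log2 scale of normalized counts plus 1, for the 45 genes (rows, by family) and the 9 samples (columns). Red marks a higher and blue a lower sample, and colour is limited at 5 either way. The first *pri* column is red for 43 of 45 genes, and the second control and second *ken* columns are mostly blue.

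The alpha-glucosidases differed least in *pri* sample 1 among the families of several genes. They took 311, 212 and 294 CPM across control samples, 306, 156 and 176 across *pri* samples, and 332, 156 and 221 across *ken* samples. The median difference of *pri* sample 1 from the other *pri* samples was 1.09 on the log2 scale, and none of the 10 exceeded 4. *Mal-A1* to *Mal-A8* lie within 24.3 kb on 2R, from 8449664 to 8473961, with the larval cuticle gene *Lcp4* 11168 bases before *Mal-A1*. *Mal-B1* and *Mal-B2* lie within 5.66 kb on 2L, from 11847226 to 11852881.

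*Mal-A3* was the most highly expressed enzyme gene for its length, at 2293 normalized counts per kb of exon in control embryos. It stood at 4629.8, 3079.8 and 4639 across control, 4272, 2272 and 2595 across *pri* and 4399, 2140.5 and 3267 across *ken* samples. It made up 31.7% to 34.5% of the summed level of the 45 genes in control samples and 12.6% in *pri* sample 1. *pri* samples 2 and 3 were below the control samples and *pri* sample 1 was within their range, at a log2 fold change of −0.44 (adjusted p = 0.441 from edgeR), and −0.76 without *pri* sample 1 (adjusted p = 0.160).

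*Mal-A2* stood at 833, 682 and 981 across control, 688, 415 and 547 across *pri* and 513, 344 and 443 across *ken* samples. All *ken* samples were below all control samples, and it fell in *ken* embryos by 0.94 on the log2 scale (SE 0.22, adjusted p = 0.0392 from edgeR, 0.00122 to 0.156 over the alternatives). The call was lost without any control or *ken* sample or without *pri* sample 3. In *pri* embryos it was at −0.60 (adjusted p = 0.138 from edgeR) and at −0.79 without *pri* sample 1 (adjusted p = 0.0595), and *pri* sample 1 reached into the control range. *Mal-A5* stood at 623, 666 and 532 across control, 598, 463 and 465 across *pri* and 561, 487 and 554 across *ken* samples. Its samples stayed within 1.29-fold of each other in every genotype, and its log2 fold changes, −0.26 for *pri* (−0.39 without *pri* sample 1) and −0.19 for *ken* embryos, did not pass the test.

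*Mal-A4* stood at 449, 159 and 306 across control, 522, 118 and 100.4 across *pri* and 1189, 391 and 479.8 across *ken* samples. *Mal-A1* stood at 418, 144 and 253 across control, 915, 165 and 215 across *pri* and 820.4, 214 and 347 across *ken* samples. In *Mal-A4* the highest value was that of *ken* sample 1, and *pri* samples 2 and 3 were the lowest of the 9 samples. *ken* against control was 1.17 (adjusted p = 0.429 from edgeR), and passed only with a block for the sample number (1.09, adjusted p = 0.037). *pri* against *ken* was −1.48 (adjusted p = 0.242), −2.66 without *pri* sample 1 (adjusted p = 0.025) and −1.64 with the block (adjusted p = 0.00427). *Mal-A1* overlaps the cytochrome gene *Cyp4e1* on the opposite strand, and whether the counting used strand is not given in the sources used here.

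*Mal-A6* stood at 202, 49.4 and 113 across control, 236, 49.8 and 41.8 across *pri* and 119, 32.6 and 58.2 across *ken* samples. *Mal-B2* stood at 100.4, 94.4 and 84.4 across control, 125, 84.8 and 88.9 across *pri* and 137, 63.2 and 68.1 across *ken* samples. Both genotypes overlapped with control in these genes, and in *Mal-A7* and *Mal-A8*, whose means were under 50 and whose samples ranged from 0 to 5.24 and from 7.32 to 72.5 normalized counts. *Mal-B1* was the alpha-glucosidase that fell in *pri* embryos. It stood at 259, 214 and 112 across control, 66.5, 34.97 and 38.7 across *pri* and 125, 102 and 81.9 across *ken* samples. All *pri* samples were below all control and all *ken* samples, *pri* sample 1 included. The log2 fold change against control was −2.07 (SE 0.36, adjusted p = 0.0093 from edgeR, 1.89e-06 to 0.0422 over the alternatives) and −2.41 without *pri* sample 1 (adjusted p = 0.00707). Against *ken* it was −1.14 (adjusted p = 0.0912), and passed without *pri* sample 1 (−1.48, adjusted p = 0.0439) and with a block for the sample number (adjusted p = 0.00943). *Mal-B1* and *Mal-B2* both overlap *Pde1c* on the opposite strand, and *Pde1c* was not lower in *pri* samples, at 1649 to 2344 against 1078 to 1493 in control.

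The amylase genes *Amy-p* and *Amy-d* lie within 7.73 kb on 2R, from 17118636 to 17126369, and are near-identical copies, so the split of reads between them is uncertain. *Amy-p* stood at 193, 76.4 and 108 across control, 763, 32.9 and 37.7 across *pri* and 406, 108 and 153 across *ken* samples. *Amy-d* stood at 54.1, 26.1 and 23.96 across control, 193, 26.5 and 24.1 across *pri* and 128, 42.1 and 56.3 across *ken* samples. In both genes *pri* sample 1 was the highest of the 9 samples and *ken* sample 1 came next. The other *pri* samples of *Amy-p* were the lowest of all. The log2 fold change of *Amy-p* in *pri* embryos was 1.13 (adjusted p = 0.57 from edgeR) and turned to −1.84 without *pri* sample 1 (adjusted p = 0.133).

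The 7 lysozyme genes lie within 33.5 kb on 3L, from 1194739 to 1228238, and *LysB* to *LysE*, *LysP* and *LysS* lie inside the span of *mwh*, a gene for wing hair and trichome polarity. *LysB*, *LysC*, *LysE* and *LysS* are on the same strand as *mwh*, which fell in *pri* embryos (log2 fold change −0.78, adjusted p = 0.0101 from edgeR, and −0.69 without *pri* sample 1, adjusted p = 0.0242), and the part of *mwh* reads in their counts was not tested. *LysC* is annotated as a pseudogene, and *LysB*, *LysC*, *LysD* and *LysE* are close copies between which reads may be split. The family took 4.54, 2.31 and 2.14 CPM across control samples, 48.5, 1.502 and 2.38 across *pri* samples, and 8.42, 3.78 and 5.79 across *ken* samples.

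*LysD* stood at 35.8, 6.29 and 11.4 across control, 687, 1.06 and 9.41 across *pri* and 16.5, 3.16 and 14.8 across *ken* samples. *pri* sample 1 exceeded the mean of the other *pri* samples by 7.21 on the log2 scale in *LysD*, by 5.54 in *LysB*, by 5.91 in *LysE* and by 4.91 in *LysC*. *LysX* and *LysP* were the exceptions among all 45 genes, with *pri* sample 1 below the mean of the other *pri* samples. *LysX*, of low level, had 4.37, 7.19 and 7.99 across control, 9.17, 15.9 and 16.7 across *pri* and 19.7, 18.95 and 17.8 across *ken* samples. It rose in *ken* embryos by 1.53 on the log2 scale (SE 0.34, adjusted p = 0.0348 from edgeR, 0.0184 to 0.126 over the alternatives), with no overlap between the groups. In *pri* embryos all samples were also above the control samples, at 1.102 (adjusted p = 0.0959 from edgeR) and 1.33 without *pri* sample 1 (adjusted p = 0.0555), neither of which passed. The call in *ken* embryos was lost without any of the control or *ken* samples or without *pri* sample 2 or 3, at 0.126 at most. *LysS* had 18.3, 16.2 and 11.4 across control, 52.7, 10.6 and 12.6 across *pri* and 107, 41.1 and 74.05 across *ken* samples. Its *ken* samples were above all control samples, at 2.26 (adjusted p = 0.0734), and passed without *pri* sample 1 (adjusted p = 0.0079) and with the block (adjusted p = 0.0107).

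The lipase gene *mag*, on 3L from 20460683 to 20462274, stood at 139.7, 50.3 and 115 across control, 152, 72.1 and 97.3 across *pri* and 67.5, 41.1 and 63.2 across *ken* samples. The *pri* samples overlapped with control and were all above the *ken* samples. The log2 fold change of *pri* against *ken* was 0.90 (SE 0.41, adjusted p = 0.232 from edgeR) and 0.56 without *pri* sample 1 (adjusted p = 0.466), and it passed with a block for the sample number (0.88, adjusted p = 0.0251).

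**Figure D3:**
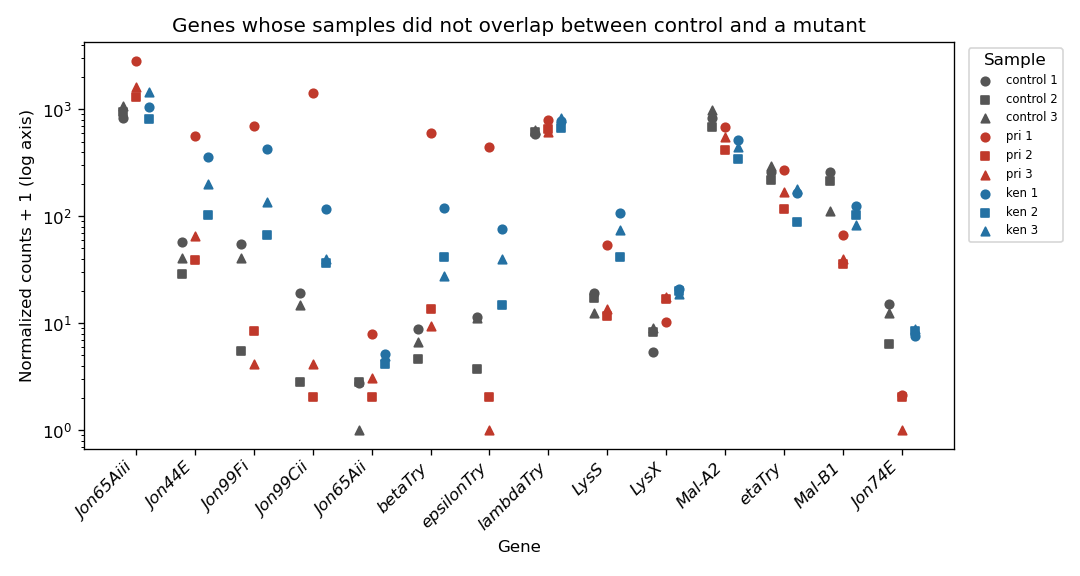
Normalized counts plus 1 (log axis) of the 14 genes, of 45, whose control samples did not overlap with the samples of at least 1 mutant. Of all genes, 15.5% were separated above and 15.6% below control in *pri*, and 12.3% and 12.5% in *ken* embryos. The share of all genes separated in at least 1 mutant was not counted. Grey, red and blue are control, *pri* and *ken*, and circles, squares and triangles are samples 1, 2 and 3. *Mal-B1* and *Jon74E* are lower in all *pri* samples, *Mal-A2* and *etaTry* are lower in all *ken* samples, and the other genes are higher in all samples of a mutant.

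Few of the 45 genes passed the test between *pri* and control embryos. In the comparison of *pri* with control, none rose by edgeR, where 3.68% of all 15228 genes rose. At an unadjusted p under 0.05 from edgeR, 8 were above 0, where 1774 of all 15228 genes were. By DESeq2, 1 rose, where 6.97% of the genes it tested did. *Mal-B1* and *Jon74E* fell, 2 of 45, where 3.83% of all genes fell. The samples did not overlap in 5 genes, 3 above and 2 below control, where 15.5% and 15.6% of all genes were separated in these directions. The median log2 fold change was 0.92 (0.81 when *Jon66Cii*, with 2 counts in all control samples together and none in *ken*, is left out), against 0.02 over all genes, and 31 of 45 were above 0. By family the medians were 2.36 for the Jonah proteases, 1.34 for the lysozymes, 1.17 for the amylases, 0.12 for the trypsins, 0.07 for *mag* and −0.37 for the alpha-glucosidases.

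This median turned its sign without *pri* sample 1. It was then −1.41 over the 45 genes (−1.33 when *Jon66Cii* is left out), against −0.01 over all genes, and 39 of 45 genes were below 0. The medians by family were −2.12 for the Jonah proteases, −1.16 for the amylases, −1.099 for the alpha-glucosidases, −1.09 for the lysozymes, −0.86 for the trypsins and −0.27 for *mag*. *Mal-B1* and *Jon74E* were still the only genes that fell, 2 of 45 (3.40% of all genes). At an unadjusted p under 0.05, 21 were below 0, and the share of all genes at that threshold was not counted. *pri* sample 1 was left out because it was high in these same genes, so the counts and medians without it are a description. The ratio of the mean summed level in *pri* to that in control was 1.35 with all samples and 0.646 without *pri* sample 1.

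**Figure D4:**
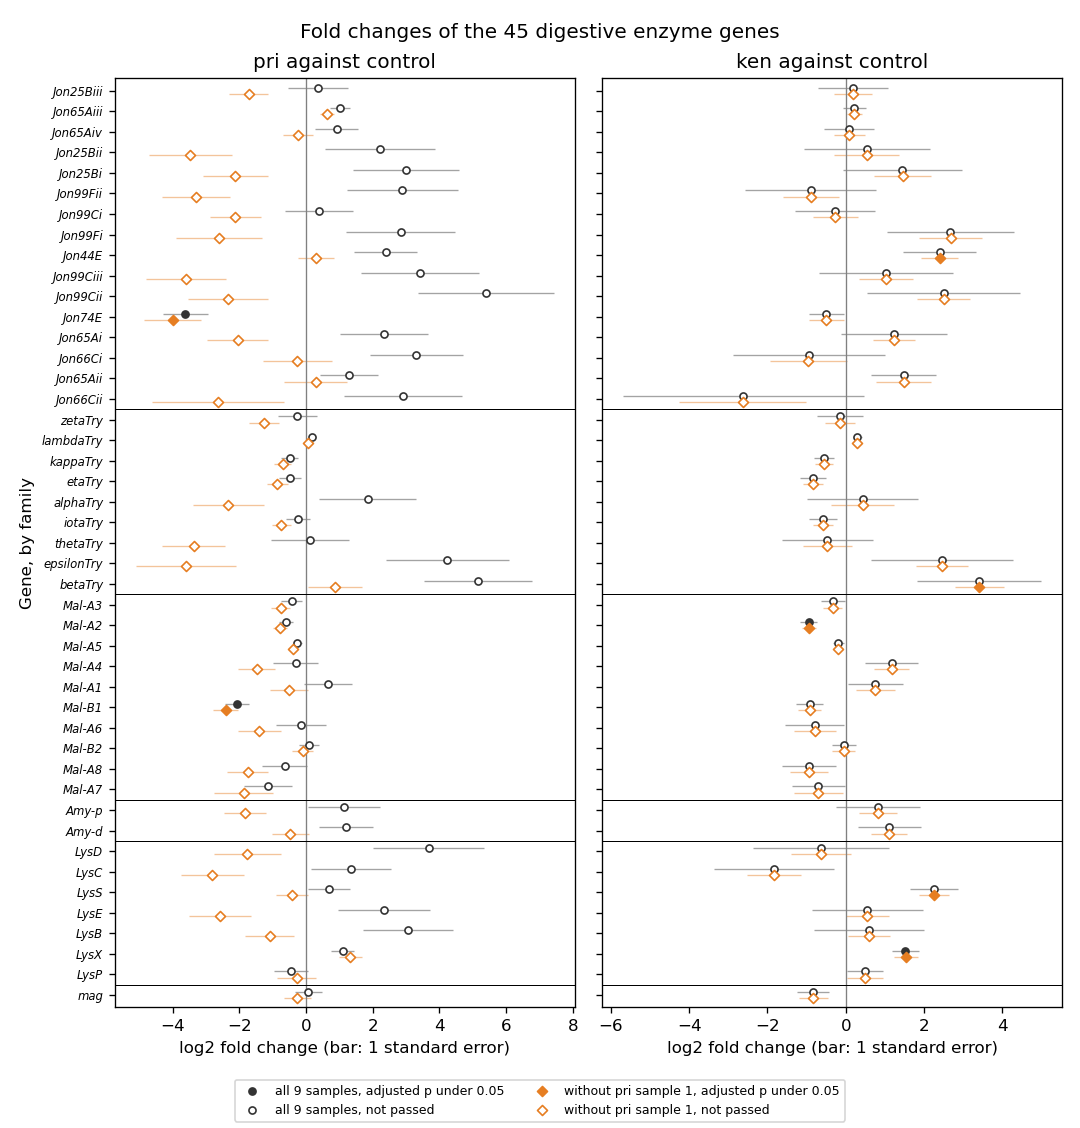
Log2 fold changes of the 45 genes in *pri* (left) and *ken* (right) embryos against control, with all 9 samples (circles) and without *pri* sample 1 (diamonds). Bars are 1 SE, and filled symbols passed at an adjusted p under 0.05. Leaving out *pri* sample 1 moves the median in *pri* embryos from 0.92 to −1.41 and narrows the bars in *ken* embryos, whose fold changes stay near the same.

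In *ken* embryos 1 gene rose, *LysX*, where 2.21% of all genes rose, and 1 fell, *Mal-A2*, where 2.81% fell. The median log2 fold change was 0.19 (0.01 over all genes), and 24 of 45 were above 0. The *ken* samples were above the control samples with no overlap in 9 genes, where 12.3% of all genes were, and below them in 2, where 12.5% were. The 9 were *Jon44E*, *Jon65Aii*, *Jon99Cii*, *Jon99Fi*, *betaTry*, *epsilonTry*, *lambdaTry*, *LysS* and *LysX*, and the 2 were *Mal-A2* and *etaTry*. With a block for the sample number, 4 rose (*Jon44E*, *LysS*, *LysX* and *Mal-A4*, with 3.32% of all genes) and 4 fell (*Mal-A2*, *Mal-B1*, *etaTry* and *kappaTry*, with 4.63%). The single fit of all genotypes shares its estimate of the spread, so that *pri* sample 1 also weighs on *ken* against control. Without it, 4 rose (*Jon44E*, *LysS*, *LysX* and *betaTry*, with 3.15% of all genes) and 1 fell (4.11% of all genes). *pri* sample 1 was left out for its high values in these same genes. Leaving it out narrows the spread in the shared fit, as in *betaTry* (SE 1.59 to 0.62), while the *ken* fold changes stay near the same. The count of 4, and such passes given above for single genes, are therefore a description.

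Between the mutants, none of the 45 genes was higher in *pri* by edgeR, where 4.03% of all genes were. At an unadjusted p under 0.05 from edgeR, 3 were higher, where 1769 of all 15228 genes were. By DESeq2, 1 was higher, where 7.48% of the genes it tested were. *Jon74E* was lower by edgeR, 1 of 45 (4.09% of all genes). The samples did not overlap in 2 genes higher in *pri*, *mag* and *Jon66Ci* (13.8% of all genes), and in 3 lower, *Jon74E*, *LysX* and *Mal-B1* (12.7%). Without *pri* sample 1, 11 of 45 were lower in *pri* than in *ken* embryos, where 3.95% of all genes were, and the median log2 fold change moved from 0.35 to −1.28. These 11 were *Jon44E*, *Jon65Ai*, *Jon74E*, *Jon99Cii*, *Jon99Ciii*, *Jon99Fi*, *epsilonTry*, *Amy-p*, *LysS*, *Mal-A4* and *Mal-B1*. *pri* sample 1 was set apart by its high values in these same genes, while *ken* sample 1, the highest *ken* sample for most of them, was kept. The count of 11 is therefore a description and not a test of the genotypes. Without *pri* sample 1 and *ken* sample 1 together, 7 were lower (4.21% of all genes). With the block, 4 were lower (*Jon74E*, *LysS*, *Mal-A4* and *Mal-B1*, with 5.36% of all genes) and 1 was higher (*mag*, with 6.14%). Both mutants share the control samples, so their values against control are given side by side and not as an overlap.

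Other genes of the gut moved in part with the enzymes across samples. Of 17 further digestive serine endopeptidases that are not among the 45, none rose or fell in *pri* or in *ken* embryos by edgeR (2 and 3 at an unadjusted p under 0.05, and 0 and 1 by DESeq2). Their median difference was 1.27 on the log2 scale in *pri* sample 1, 0.91 in *ken* sample 1 and −0.87 in control sample 2. *yip7*, a Jonah-like protease, stood at 676, 218 and 744 across control, 1824, 369 and 526 across *pri* and 782, 280.1 and 598 across *ken* samples. In *yip7*, *pri* sample 1 was the highest of all samples and sample 2 the lowest of each genotype. Most genes of this list did not have their highest value in *pri* sample 1. In *Try29F*, the gene of highest level on the list, control sample 3 was the highest, at 4368 against 3517 in *pri* sample 1. Sample 2 was again the lowest of each genotype in *Try29F*. Without *pri* sample 1, the median log2 fold change of the 17 in *pri* embryos moved from −0.14 to −0.88.

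A list of 22 further genes holds digestive hydrolases of other families, but also genes of lipid and sterol binding or transport, which are not hydrolases. Of the 22, 3 rose and 4 fell in *pri* embryos (3.68% and 3.83% of all genes). In *ken* embryos 2 rose and 7 fell (2.21% and 2.81%), and the others did not pass the test. With *pri* sample 1 left out, 3 rose and 4 fell in *pri* embryos, and 3 rose and 7 fell in *ken* embryos. The sample differences of these 22 genes were small, with a median of 0.20 on the log2 scale in *pri* sample 1, 0.30 in *ken* sample 1 and −0.22 in control sample 2. *Lip1*, a lipase, stood at 469.8, 522 and 444 across control, 1479, 1697 and 1608 across *pri* and 1871, 2511 and 2225 across *ken* samples. No sample overlapped between control and a mutant, and *Lip1* rose in *pri* (log2 fold change 1.73, adjusted p = 0.000101 from edgeR) and in *ken* embryos (2.20, adjusted p = 2.54e-05). *tobi*, an alpha-glucosidase outside the Mal clusters, stood at 66.4, 52.1 and 78.7 across control, 88.3, 74.2 and 93.1 across *pri* and 835, 204 and 204 across *ken* samples, and rose in *ken* embryos (2.66, adjusted p = 0.0222). *LManIII*, a lysosomal-type alpha-mannosidase, stood at 139, 109 and 131 across control, 30.9, 34.97 and 29.3 across *pri* and 45.3, 33.7 and 57.3 across *ken* samples. It fell in both mutants, by 1.99 on the log2 scale in *pri* and by 1.47 in *ken* embryos. *Lip1* was at 1.78 and *LManIII* at −1.97 in *pri* embryos without *pri* sample 1, and both passed the test.

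Regulators differed less between the samples than the enzymes. A list of 15 midgut regulators also holds genes that act in the hindgut or the visceral mesoderm. Of the 15, among them the GATA factors *srp* and *GATAe*, none rose or fell in either mutant by edgeR or DESeq2 (1 in *pri* and 4 in *ken* embryos at an unadjusted p under 0.05). *GATAe*, which is needed for gene expression in the endoderm, stood at 2922, 3074 and 2979 across control, 2644, 3305 and 3216 across *pri* and 2422, 3092 and 3176 across *ken* samples. The median difference of these regulators was −0.27 in *pri* sample 1 and −0.12 in *ken* sample 1. Of 10 regulators of enzyme genes, such as the sugar-responsive factor *sug* and the Activin ligand *daw*, none rose or fell in either mutant by edgeR (1 in *pri* and 3 in *ken* embryos at an unadjusted p under 0.05, and 0 and 2 by DESeq2). The numbers over all genes at these thresholds are given above beside the further endopeptidases. Without *pri* sample 1, 2 of the 10 fell in *ken* embryos (4.11% of all genes). The median difference of the 10 had the directions of the enzymes, at 0.21 in *pri* sample 1, 0.12 in *ken* sample 1 and −0.11 in control sample 2.

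Other gut lists and markers of other tissues also differed between the samples, and their part in the differences of the enzyme genes was not tested. In *pri* sample 1, the median difference was 1.08 for 11 genes of gut peptidoglycan recognition and the peritrophic matrix, 0.88 for 13 genes of midgut transport, metal handling and acid secretion, 0.66 for 10 enteroendocrine genes, 0.48 for 10 Malpighian tubule genes, 0.47 for 12 muscle genes and 0.39 for 12 neuronal genes. It was 0.20 for 10 hemocyte genes, 0.02 for 10 epidermal genes, −0.13 for 12 ecdysone response genes, −0.22 for 10 salivary gland genes, −0.22 for 10 fat body genes and −0.23 for 6 tracheal genes. *MtnE*, a metallothionein, stood at 29.7, 20.7 and 31.9 across control, 1138, 19.1 and 34.5 across *pri* and 47.7, 11.6 and 27.6 across *ken* samples. *pri* sample 1 was far above every other sample.

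**Figure D5:**
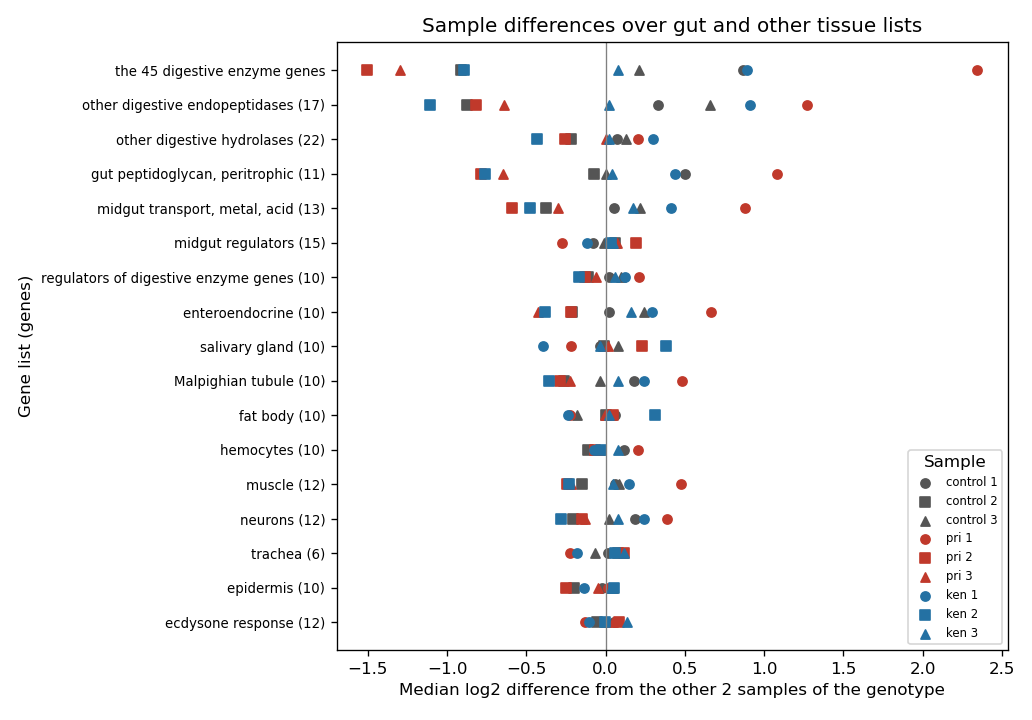
Median log2 difference of each sample from the other samples of its genotype, for the 45 enzyme genes and 16 other gene lists (number of genes in brackets), with 1 point per sample. Points of *pri* sample 1 (red circles) lie at 2.35 for the enzyme genes and 1.27 for other digestive endopeptidases, and near 0 or below it for midgut regulators, trachea and the ecdysone response.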

How the data were processed

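RNA-seq libraries of polyadenylated RNA were made from 3 control, 3 *pri* and 3 *ken* samples. Reads were aligned by the authors to dm6 (STAR 2.6.1d) and deposited as counts per FlyBase gene. The submitters' notes name mouse builds, but the genes are those of *Drosophila*. The deposited normalized counts are a signal that the authors made with DESeq2 1.32.0 by dividing the counts by size factors, which was checked against the counts. Total counts per sample (21048610 to 28859395) limit the precision of genes of low level.

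Counts were fitted with edgeR 4.0.16 (R 4.3.3) by quasi-likelihood, with 1 mean per genotype over the 9 samples, TMM factors and no filter. The p-values were adjusted over all 15228 genes (Benjamini-Hochberg). DESeq2 1.42.0, other scalings and filters (such as 10 counts in 3 samples), a replicate block and leaving out samples were alternatives. Differences between samples use log2 of normalized counts plus 1. Samples with the same number deviated together in *ken* and control (correlations 0.34, 0.47 and 0.17 over 11307 genes) and in *pri* and *ken* (0.55, 0.53 and 0.12), so the block stands beside these results; the labels give no reason for it. Positions are from the Ensembl annotation of dm6. All members could be named, with values in every sample for the 31 with a mean of at least 50. Of the other lists (190 of 196 symbols matched), up to 3 genes with the smallest adjusted p per comparison could be named, and *yip7*, *Try29F*, *tobi*, *LManIII*, *GATAe*, *MtnE*, *sha* and *mwh* were named after their values were seen. Members and lists were chosen with earlier results of these data known. The method was tested on simulated data. Protein and promoter sequences were not analysed here.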

Additional observations from a re-analysis of the deposited data

How the results depend on the processing

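The counts of called genes are small, and most moved with the processing. With DESeq2, which gave no adjusted p to 8 of the 45 genes, 1 rose in *pri* against control, 2 rose in *ken* against control, and in *pri* against *ken* 1 was higher and 2 were lower. Either filter on low counts left 1 lower in *pri* against control and 0 lower in *pri* against *ken*. A fit of only the genotypes compared gave 4 higher in *ken*, and asking for a log2 change beyond 1 gave 0 lower in *ken*. With the replicate block, 2 were higher and 4 lower in *pri* against control (5.38% and 5.55% of all genes), 4 higher and 4 lower in *ken* against control (3.32% and 4.63%), and 1 higher and 4 lower in *pri* against *ken* (6.14% and 5.36%). The numbers of *pri* and control were not taken as pairs (correlations 0.43, 0.55 and −0.11). Under the block *Amy-p* and *Jon99Fi* turned to −0.51 and −1.16 (log2) in *pri* against *ken*.

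Leaving out each sample in turn, *pri* against control had 0 to 1 higher and 2 lower each time, *ken* against control 0 to 4 higher and 0 to 1 lower, and *pri* against *ken* 0 to 11 lower. The median log2 fold change of the 45 genes ranged from −1.41 to 1.06, from −0.23 to 0.41 and from −1.28 to 0.76, and was below 0 without *pri* sample 1 for both *pri* comparisons and without control sample 2 or *ken* sample 1 for *ken*. Without *pri* sample 1, 25 of the 45 genes turned their sign in *pri* against control and 26 in *pri* against *ken*. Genes that passed the test in at least 1 fit and took both signs over the main fit and the alternatives are given. Among them, *Mal-A4* in *pri* against control and *Jon44E* in *pri* against *ken* were below 0 both with all samples and without *pri* sample 1. In *pri* against control they ranged from −1.84 to 1.66 for *Amy-p* and −1.49 to 0.087 for *Mal-A4*. In *pri* against *ken* they ranged from −2.66 to 1.09 for *Amy-p*, −2.11 to 0.54 for *Jon44E*, −3.29 to 1.66 for *Jon65Ai*, −4.85 to 3.67 for *Jon99Cii*, −4.63 to 3.16 for *Jon99Ciii*, −5.29 to 1.22 for *Jon99Fi*, −2.55 to 2.62 for *betaTry* and −6.06 to 2.49 for *epsilonTry*.

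Without *pri* sample 1 and *ken* sample 1 together, 5 were lower in *pri* against control (5.57% of all genes), 4 higher in *ken* against control (3.73%) and 7 lower in *pri* against *ken* (4.21%), and the medians were −1.41, −0.23 and −1.11. *Amy-p* was then at −1.84 against control, and against *ken* the log2 fold changes were −1.89 for *Amy-p*, −3.16 for *Jon65Ai*, −4.06 for *Jon99Cii*, −3.86 for *Jon99Ciii*, −4.24 for *Jon99Fi*, −1.67 for *betaTry* and −5.34 for *epsilonTry*. Over all alternatives, 0.992% to 7.48% of all genes were higher and 1.54% to 6.89% lower in a comparison. The causes were not tested. RLE factors, library totals and a robust spread moved no count of called genes by more than 1.5 times. With 3 samples per genotype and genes of under 10 counts in most samples, such as *Jon74E*, counting error limits what these data can show.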
